A study of Mus musculus with 8 samples.

Results

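Tetraspanins are small membrane proteins that cross the membrane several times and gather integrins, immunoglobulin family members and proteases around themselves into tetraspanin-enriched microdomains. On lymphocytes they organise receptors at the contact between T and B cells and are sorted into endosomes and extracellular vesicles. CD81, CD82 and CD9 have each been described as costimulatory molecules or as markers of activation on T cells, whereas CD37, CD53 and TSPAN32 are largely restricted to hematopoietic cells. The mRNA of 10 members of the family, namely Cd9, Cd37, Cd53, Cd63, Cd81, Cd82, Cd151, Tspan13, Tspan31 and Tspan32, is described here in 4 types of CD4 T cells. The rule lists them by name and uses no measured value, although the choice was made with earlier results of these data known. All 10 were found among the 29924 gene names on the array, with 16 probes between them, and all belong to the 15764 genes that were tested.

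The cells came from peripheral lymph nodes (pLN) of mice of the strain B6.Cg-Foxp3<tm1Mal>, in which EGFP marks cells that express Foxp3. Mice of both sexes, aged 8 to 14 weeks, were immunized s.c. with KLH and alum, and cells pooled from 8 to 15 mice were sorted at day 12 (d12) or day 25 (d25) as B220- CD4+ cells. Gates were GFP- PD1lo GL7- for naïve CD4 T cells (referred to as naïve cells), GFP- PD1hi GL7+ for TFH cells, GFP+ PD1lo GL7- for Treg cells and GFP+ PD1hi GL7+/- for TFR cells. Since naïve cells were sorted from the same immunized mice and no unimmunized mice were included, every group carries the immunization and the reporter allele. Each cell type was hybridized once at each day from 25 ng of RNA, which gives 8 arrays. The series' design speaks of 3 independent experiments at d12 and 2 at d25, and it is not clear from the sources used here whether an array stands for 1 of them or for several. The mean of a cell type thus rests on n = 2 arrays that differ in day, and p-values measure the spread of differences between the days. Levels are normalized signals in relative units (RU). They are compared between cell types for the same probe and not between genes.

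A limma fit of the log2 values of all 8 arrays, with cell type and day as terms, gave the differences. They are given as estimate ± standard error (SE), and a gene is referred to as called where p, adjusted after Benjamini-Hochberg over all 15764 genes, was below 0.05. All d12 arrays were on 1 slide, d25 arrays of naïve and TFH cells on the second, and those of Treg and TFR cells on the third. TFH and naïve cells, as well as TFR and Treg cells, were therefore compared within slides. The comparisons of GFP+ with GFP- cells crossed slides at d25, and day cannot be told apart from slide. In sorted bulk material, fewer cells of a type that express a gene and less RNA per cell cannot be told apart. On each array, 18261 to 19867 of 39429 probes were well above background. No tetraspanin of the 10 failed to reach that level on any array, and none had a saturated spot. Of the marker genes listed for Treg and follicular cells, all but Ikzf2 followed the sorted cell types. Ikzf2, listed for Treg cells, had 10556 and 10864 RU in TFH cells, beside 9970 and 11154 RU in Treg and 81 and 144 RU in naïve cells. Foxp3 had 37464 to 49591 RU in GFP+ and 65 to 356 RU in GFP- cells, Cxcr5 35504 to 240836 RU in PD1hi and 1400 to 4394 RU in PD1lo cells.

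The promoters of Cd81, Cd82 and Cd9 are shown because these genes differed between cell types in 3 distinct ways. Each is the stretch of 250 bases before the most upstream annotated start, read in the direction of the gene, from RefSeq on assembly GRCm38.p6. Capitals mark GGGCGG, a GC box, searched on both strands.
Cd81, chr7:143052500-143052749, plus strand: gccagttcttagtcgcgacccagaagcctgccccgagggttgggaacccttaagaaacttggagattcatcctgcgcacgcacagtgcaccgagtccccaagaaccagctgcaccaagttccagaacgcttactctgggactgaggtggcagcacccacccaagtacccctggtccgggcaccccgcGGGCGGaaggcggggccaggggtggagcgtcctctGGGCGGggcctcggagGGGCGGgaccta
Cd82, chr2:93462951-93463200, minus strand: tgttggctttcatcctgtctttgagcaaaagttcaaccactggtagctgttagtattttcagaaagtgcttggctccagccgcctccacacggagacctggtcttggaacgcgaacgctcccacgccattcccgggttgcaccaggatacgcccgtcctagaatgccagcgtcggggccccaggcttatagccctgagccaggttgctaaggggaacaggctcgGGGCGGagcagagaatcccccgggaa
Cd9, chr6:125494761-125495010, minus strand: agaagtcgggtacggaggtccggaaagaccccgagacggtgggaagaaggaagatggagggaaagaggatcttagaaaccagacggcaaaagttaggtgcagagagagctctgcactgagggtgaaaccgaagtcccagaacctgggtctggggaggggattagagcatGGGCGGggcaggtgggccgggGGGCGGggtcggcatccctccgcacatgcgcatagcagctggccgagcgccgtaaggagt
The window of Cd81 holds GGGCGG 3 times, that of Cd9 2 times and that of Cd82 once. Among 32851 mouse windows of the same length, 32.7% hold it. It was present before the most upstream start of 6 of the 10 tetraspanins, and TATAAA was in none of the 14 windows listed for them, compared with 12.4% of all windows. G and C made up 65.6% of the Cd81 window, 58.4% of that of Cd82 and 61.6% of that of Cd9, whereas the median of all windows was 52.4%. These matches are descriptions of the sequence. Cd81 lies on chromosome 7 as a neighbor of Tspan32, with no protein-coding gene between them in the reference and 48.35 kb between their probes (build NCBI37). Cd37 and Cd151 are on chromosome 7 as well, so that this chromosome holds 4 of the 10.

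**Figure D1:**
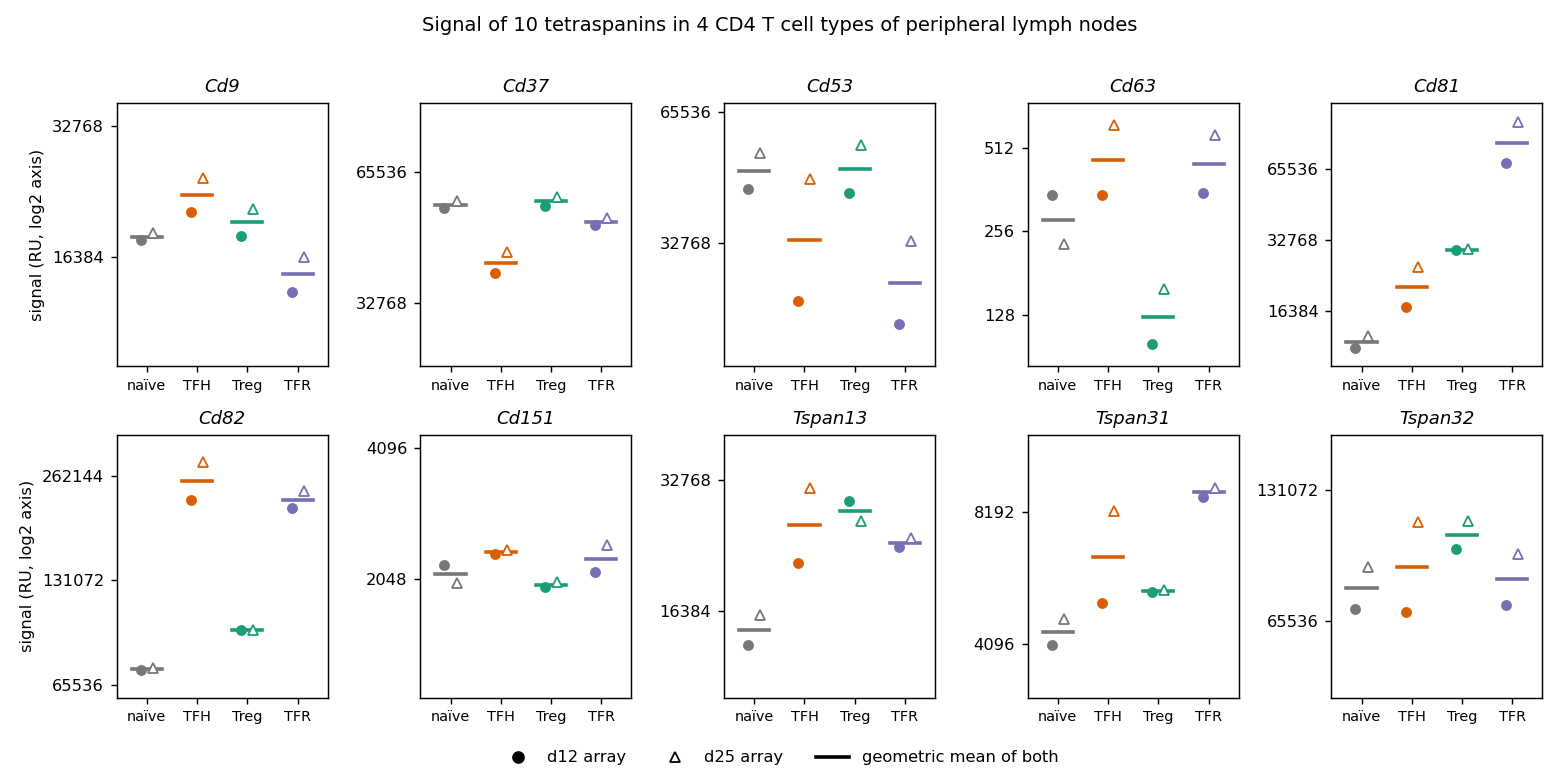
Signal of the 10 tetraspanins in RU on a log2 axis, by cell type, with the d12 array as a filled circle, the d25 array as an open triangle and their geometric mean as a bar. Cd81 ascends from naïve over TFH and Treg to TFR cells, Cd82 is high in both follicular cell types, Cd63 is lowest in Treg cells, and Cd9 is highest in TFH and lowest in TFR cells.

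Of the 10 tetraspanins, 4 were called higher in TFH than in naïve cells (Cd9, Cd81, Cd82 and Tspan13) and 1 was called lower (Cd37). The background over all genes was 20.9% higher and 25.6% lower. Between TFR and Treg cells, 4 were called higher (Cd63, Cd81, Cd82 and Tspan31) and 2 lower (Cd9 and Cd53), beside 18.7% and 20.9% of all genes. Between TFR and TFH cells, Cd81 was higher and Cd9 lower, beside 11.7% and 10.5%. Cd81 and Tspan13 were higher in Treg than in naïve cells, beside 5.89%, and none was lower, beside 3.98%. For the latter, limma gave 1 of 10 lower at an unadjusted p below 0.05 (Cd63), beside 14% of all genes. The median log2 difference of the 10 was 0.44 between TFH and naïve cells, compared to -0.07 for all genes, and 0.02 between TFR and Treg cells, compared to -0.08. Called members lay on both sides of 0 between TFH and naïve and between TFR and Treg cells. The falls, 1 and 2 of 10, were not above the shares of all genes.

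**Figure D2:**
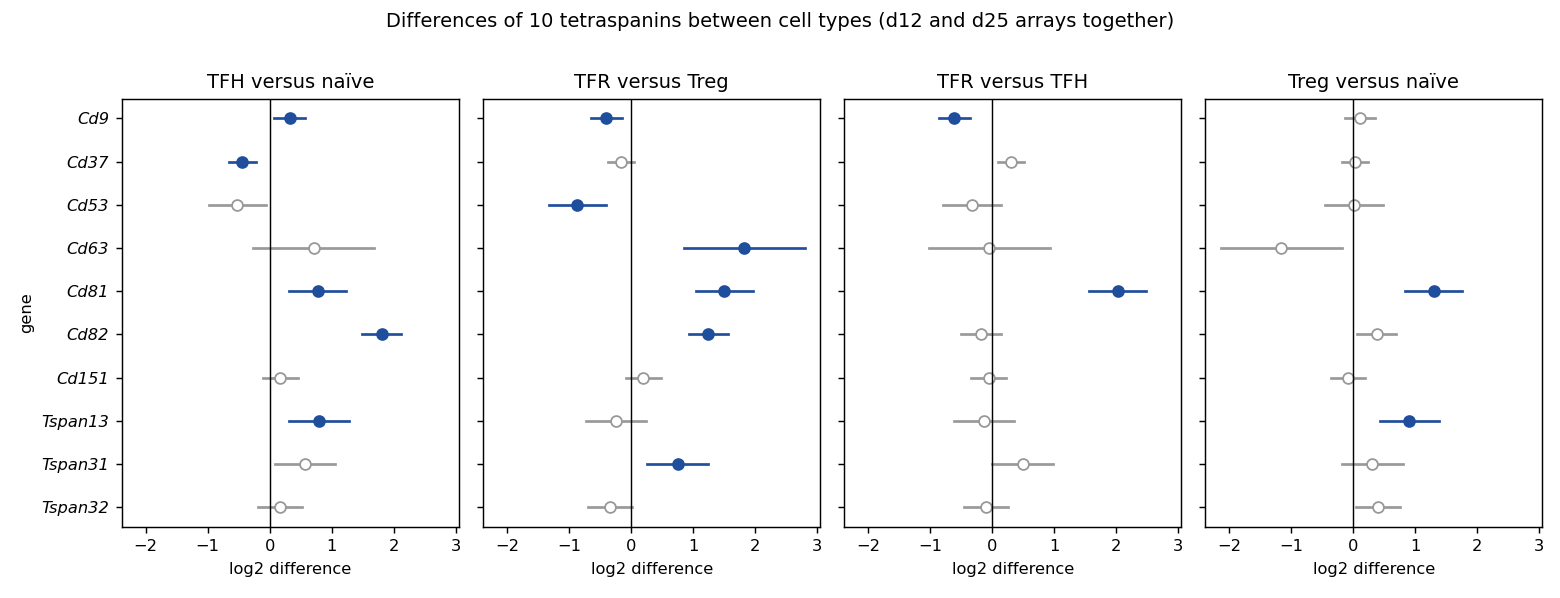
Log2 differences of the 10 tetraspanins in 4 comparisons between cell types, with bars for the 95% confidence interval of the limma fit and filled blue points for an adjusted p below 0.05. Called points lie on both sides of 0 in the comparisons of TFH with naïve, TFR with Treg and TFR with TFH cells.

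Cd81 differed most between cell types. The protein is a costimulatory molecule on T cells. Its probe (chr7:150253737-150253796, NCBI37, plus strand) had 11444 and 12795 RU in naïve cells at d12 and d25, 17003 and 25240 RU in TFH cells, 29600 and 29924 RU in Treg cells, and TFR cells had 69103 and 103662 RU. The order of the means was TFR, Treg, TFH, naïve, with a range of 2.81 on the log2 scale between the highest and the lowest. No array of one cell type overlapped with those of another. With 2 arrays per cell type, missing overlap is a description here and below. It also occurred where nothing was called, as for Cd151 between TFH and naïve cells. TFR cells exceeded TFH cells 4.09-fold (log2 difference 2.03 ± 0.18, adjusted p = 0.00311) and Treg cells 2.84-fold (1.51 ± 0.18, adjusted p = 0.00436). The difference between TFR and TFH cells was 2.02 at d12, within a slide, and 2.04 at d25, across slides, with 1 array of each cell type. TFH cells were above naïve cells by 0.78 ± 0.18 (adjusted p = 0.0216) and Treg above naïve cells by 1.30 ± 0.18 (adjusted p = 0.0169).

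The Cd81 calls against TFH and against Treg cells held in all 18 alternatives to the processing, with adjusted p-values up to 0.0393. That of TFH over naïve cells was lost without either naïve array and without the d25 TFH array, where the difference was 0.62. It was also lost without the filter on dim probes, without the day term and by Tukey's test. The call of Treg over naïve cells was lost without any one of the naïve or Treg arrays (1.09 to 1.51) and without the filter on dim probes. With slide as a term it was lost as well (1.33, adjusted p = 0.095). The rise from Treg to TFR cells was larger than that from naïve to TFH cells by 0.73 ± 0.25, which did not pass the test (adjusted p = 0.159). Cell cycle genes (4 of 4 on the array) showed a related but not identical order. Their summed level was 765 to 1026 RU in naïve, 1695 to 1901 RU in Treg, 4395 to 6481 RU in TFH, and 11124 to 12790 RU in TFR cells, and their part in the Cd81 result was not tested.

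Tspan32, the neighbor of Cd81, encodes a hematopoietic tetraspanin known as a negative regulator of T cell proliferation. Its level in RU (chr7:150205329-150205388, plus strand) was 69698 and 87222 in naïve cells, 68853 and 110702 in TFH cells, 95958 and 111216 in Treg cells, and 71292 and 93473 in TFR cells. Arrays of adjacent cell types in the order Treg, TFH, TFR, naïve overlapped, and no difference between cell types was called. Treg cells stood 0.41 ± 0.14 above naïve cells (adjusted p = 0.14) and TFR cells 0.34 ± 0.14 below Treg cells (adjusted p = 0.107). Its other probes did not all behave alike. In a fit over all probes, a dimmer one was called 0.59 lower in TFR than in Treg cells (adjusted p = 0.00822) and 0.53 higher in Treg than in naïve cells (adjusted p = 0.0298). A probe of a different transcript at the 5′ side of the gene differed by -0.42 (adjusted p = 0.0534) and -0.03 (adjusted p = 0.923).

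Cd82 marked both follicular cell types. The encoded protein, known as KAI1, suppresses metastasis and accumulates on activated T cells. Its brightest probe (chr2:93259268-93259327, minus strand) reached 72100 and 73025 RU in naïve cells and 94366 and 94291 RU in Treg cells, but 223021 and 287857 RU in TFH cells and 211676 and 237075 RU in TFR cells. Both follicular types overlapped with each other and lay far above both PD1lo types. The rise from naïve to TFH cells was 3.49-fold (log2 difference 1.80 ± 0.12, adjusted p = 0.000618), and that from Treg to TFR cells was 2.37-fold (1.25 ± 0.12, adjusted p = 0.00281). Both held in all 18 alternatives. TFR and TFH cells differed by -0.18 (95% confidence interval -0.49 to 0.14, adjusted p = 0.35). The increase was smaller among GFP+ cells by 0.56 ± 0.17, which did not pass the test (adjusted p = 0.132). The 2 dimmer Cd82 probes rose as well, by 1.52 and 1.56 in TFH and by 0.96 and 1.09 in TFR cells, with adjusted p-values up to 0.0124.

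Cd9, a partner of integrins that is also required on the egg for fusion with sperm, went in opposite directions. Its level (chr6:125410387-125410446, minus strand) was 17922 and 18581 RU in naïve cells, 20825 and 24913 RU in TFH cells, 18360 and 21083 RU in Treg cells, and TFR cells had 13652 and 16410 RU. TFR cells were below the arrays of every other cell type, whereas Treg cells overlapped with naïve and TFH cells. TFH cells lay above naïve cells by 0.32 ± 0.09 (1.25-fold, adjusted p = 0.0454), and TFR cells were 1.31-fold below Treg cells (-0.39 ± 0.09, adjusted p = 0.0293) and 1.52-fold below TFH cells (-0.61 ± 0.09, adjusted p = 0.0145). The follicular change thus differed between GFP+ and GFP- cells by -0.71 ± 0.13 (adjusted p = 0.043), the only such call among the 10, beside 8.51% of all genes. These are small differences with p-values close to the threshold. The call of TFH over naïve cells and that between the follicular changes were each lost when any one of the 8 arrays was left out (0.23 to 0.41 and -0.81 to -0.62, adjusted p up to 0.227 and 0.182). Without the d12 TFR, d25 TFH or d25 TFR array, the call of TFR below TFH cells was lost (-0.65 to -0.56 over all arrays left out, adjusted p up to 0.112). That of TFR below Treg cells was lost without any one of the Treg or TFR arrays (-0.44 to -0.35 over all arrays left out). With slide as a term, none of the 4 was called.

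Tspan13 encodes a tetraspanin with few described functions in T cells. It had 13714 and 16041 RU in naïve cells, 21120 and 31425 RU in TFH cells, 29345 and 26367 RU in Treg cells, and TFR cells had 22940 and 24087 RU (chr12:36741613-36741672, minus strand). Naïve cells were lowest on both arrays, and TFH overlapped with Treg and TFR cells. TFH cells (0.80 ± 0.19, adjusted p = 0.0229) and Treg cells (0.91 ± 0.19, adjusted p = 0.0495) were both called above naïve cells, whereas TFR differed from Treg cells by -0.24 ± 0.19 (adjusted p = 0.345). The follicular change was lower by 1.04 ± 0.26 among GFP+ cells and was not called (adjusted p = 0.0862). Without the d25 TFH array, the first difference was 0.53 (adjusted p = 0.0649). The call was also lost without either naïve array (0.77 and 0.83), without either TFR array (0.80), without the filter on dim probes and by Tukey's test. The call between Treg and naïve cells was lost without any naïve, Treg or TFR array (0.69 to 1.13) and with slide as a term (1.13, adjusted p = 0.0648). In all, 6 of the 18 alternatives kept it.

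**Figure D3:**
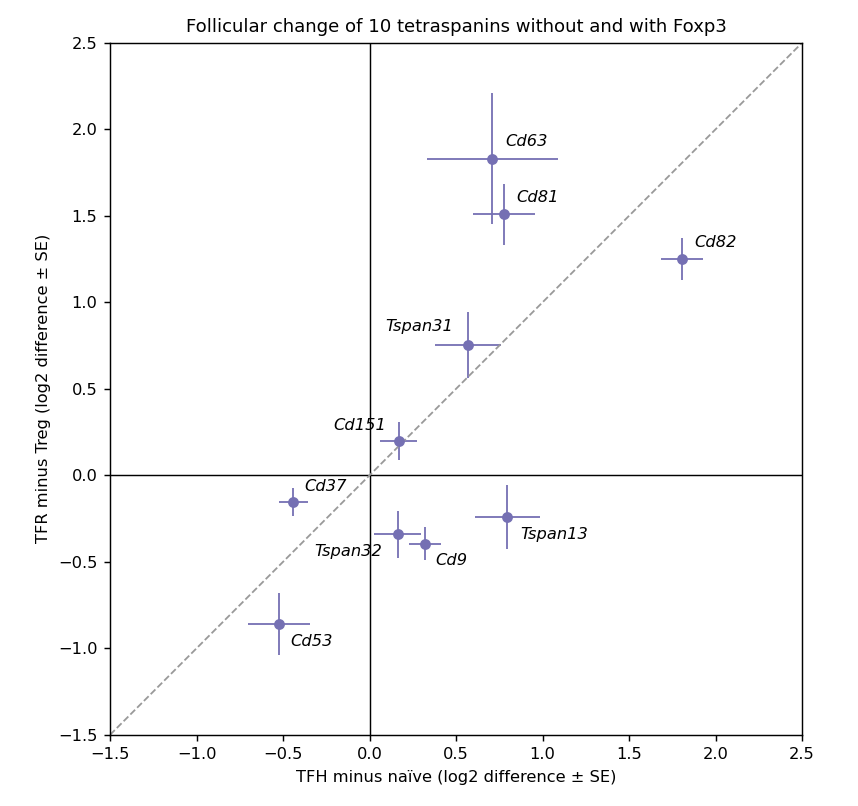
Change of the 10 tetraspanins from naïve to TFH cells (x axis) and from Treg to TFR cells (y axis), both as log2 difference ± SE, with a dashed line of equal change. Cd81 and Cd82 are up on both axes, Cd37 and Cd53 have negative values on both, and Cd9, Tspan13 and Tspan32 have a positive value on the x axis and a negative one on the y axis.

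Cd63 is a protein of late endosomes, secretory granules and exosomes. Its probe (chr10:128349813-128349872, plus strand) had 345 and 230 RU in naïve cells, 344 and 617 RU in TFH cells, 100 and 158 RU in Treg cells, and TFR cells had 351 and 570 RU. Treg cells were lowest, without overlap with any other cell type, and TFH overlapped with TFR and naïve cells. TFR were 3.55-fold above Treg cells (1.83 ± 0.38, adjusted p = 0.0193), and the difference was 1.81 at d12 and 1.85 at d25. The call was lost when one of these 4 arrays was left out (1.63 to 2.03), without the filter on dim probes and by Tukey's test. Between TFH and naïve cells the difference was -0.01 at d12 and 1.43 at d25, or 0.71 ± 0.38 over both (adjusted p = 0.183). It was called without the d12 naïve array (1.37, adjusted p = 0.00792). Treg differed from naïve cells by -1.16 ± 0.38 (adjusted p = 0.132), and by -1.82 without the d25 naïve array (adjusted p = 0.0193). Lyz2, a gene of myeloid cells, had 204 and 447 RU in Treg, 378 and 1258 RU in TFR, 459 and 1249 RU in TFH, and 447 and 351 RU in naïve cells. The summed level of all 7 genes of the myeloid list was 71248 to 72280 RU in TFR and 84524 to 86240 RU in Treg cells. It was 82529 to 82809 RU in TFH and 93777 to 116445 RU in naïve cells. Most of the sum was Siglech, with 47581 to 83282 RU. From Treg to TFR cells, Siglech, Itgam and Csf1r differed by -0.37, -0.22 and -0.35, none called. Cd68 (2.77, called), Lyz2 (1.19, not called) and Fcer1g (1.02, not called) were higher. Lyz2 and Cd68 were chosen after their values were seen, and Cd68 had 5116 and 3777 RU in TFH, 2874 and 2337 RU in TFR, 549 and 562 RU in naïve and 366 and 393 RU in Treg cells. Itgax was well above background on 1 array, and the part of myeloid cells in the Cd63 result was not tested.

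Tspan31, named for its amplification in sarcoma, had 4072 and 4663 RU in naïve cells, 5072 and 8236 RU in TFH cells, 5368 and 5442 RU in Treg cells, and TFR cells had 8882 and 9332 RU. TFR cells were above all other arrays, and TFH overlapped with Treg cells. The rise from Treg to TFR cells was called (1.68-fold, 0.75 ± 0.19, adjusted p = 0.0331), that from naïve to TFH cells was not (0.57 ± 0.19, adjusted p = 0.0615). Without one of the Treg, TFR or naïve arrays, the call was lost (0.60 to 0.90), and 9 of the 18 alternatives kept it. Only 21 bases of its probe are placed on the genome in the files (chr10:126504346-126504366, minus strand), so that its position is less certain than those of the other members.

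Cd53 and Cd37 are pan-leukocyte tetraspanins that are abundant on B cells, where CD37 takes part in signaling for survival and antibody responses. Cd53 (chr3:106565046-106566140, minus strand, a probe that spans an intron) had 43517 and 52742 RU in naïve cells, 24214 and 45932 RU in TFH cells, 42681 and 54854 RU in Treg cells, and TFR cells had 21423 and 33117 RU. Both TFR arrays lay below both Treg arrays, by 0.86 ± 0.18 (1.82-fold, adjusted p = 0.0199), and TFH arrays spread over nearly the whole range. The call between TFR and Treg cells was lost without any one of these 4 arrays (-0.99 to -0.74), and 11 of the 18 alternatives kept it. TFH differed from naïve cells by -0.85 at d12 and -0.20 at d25, or -0.52 ± 0.18 over both (adjusted p = 0.0669). Without the d25 TFH array it was called (-0.77, adjusted p = 0.0276).

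Cd37 (chr7:52489002-52489061, minus strand) was lowest in TFH cells with 38500 and 42837 RU, compared to 54198 and 56044 RU in naïve, 54776 and 57439 RU in Treg, and 49453 and 51312 RU in TFR cells. TFH arrays overlapped with none of the others, and naïve with Treg cells only. TFH cells were 1.36-fold below naïve cells (-0.44 ± 0.08, adjusted p = 0.0117), and TFR cells 0.31 ± 0.08 above TFH cells (adjusted p = 0.0563). The latter passed the test under 4 of the 18 alternatives, with adjusted p-values down to 0.029. The former was lost without either naïve array (-0.42 and -0.46, adjusted p up to 0.0774), and a second, dimmer probe gave -0.26 (adjusted p = 0.0962).

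Cd151, a partner of laminin-binding integrins, differed least, with a range of 0.25 on the log2 scale. It had 2209 and 2009 RU in naïve cells, 2340 and 2391 RU in TFH cells, 1966 and 2014 RU in Treg cells, and TFR cells had 2131 and 2448 RU (chr7:148657237-148657297, plus strand). Neighbors in the order TFH, TFR, naïve, Treg overlapped, and nothing was called (adjusted p of 0.202 or above between cell types). The interval of the difference between TFH and naïve cells was -0.11 to 0.45, and a second probe, dimmer than the first, had the opposite sign (-0.27, adjusted p = 0.204).

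By their brightest probes, all 10 tetraspanins were higher on the d25 than on the d12 array of TFH cells, with a median of 0.57 on the log2 scale. In TFR cells they were higher by a median of 0.23. In TFH cells the dimmer Cd37 probe was lower at d25 (19005 and 16730 RU), as was 1 of Tspan32 (13051 and 11890 RU). The other dimmer probes were higher. Scaling to the 75th percentile gave negative differences between days over all cell types for Cd37 (-0.078) and Cd82 (-0.10). In naïve and Treg cells 8 of 10 were higher. Of all genes, 49.0% to 51.6% were higher at d25 in a given cell type. No member was called between the days by limma (0 of 10), beside 0.0698% of all genes. At an unadjusted p below 0.05 there were 4 of 10, beside 28.8% of all genes. Cd53 had the lowest adjusted p (0.55 ± 0.13, adjusted p = 0.091), followed by Tspan32 (0.40 ± 0.10, adjusted p = 0.0938). In TFH cells alone, Cd53 was higher by 0.92, Tspan31 by 0.70 and Tspan32 by 0.69.

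Of 8 markers of B cells, 6 were higher on the d25 than on the d12 TFH array, 1 was lower and 1 did not move. Ms4a1 had 245 RU at d12 and 2743 RU at d25, and Cd79a 253 and 1823 RU, whereas Cd22 had 6038 and 3963 RU. These were chosen after their values were seen. The summed level of the list was 7724 and 16729 RU on the TFH arrays, 5725 to 7522 RU in naïve, 9825 to 10222 RU in Treg and 7793 to 8781 RU in TFR cells. Pax5 was at the floor of 20 RU on all arrays. Their part in the higher levels at d25 was not tested. Without this array, Cd81 and Tspan13 were no longer called between TFH and naïve cells, as given above, Cd9 neither (0.28, adjusted p = 0.135), whereas Cd82 (1.65, adjusted p = 0.00338) and Cd37 (-0.49, adjusted p = 0.0241) were. Of 4 platelet markers, whose cells carry much CD9, CD63 and CD151, none was above background on any array. Both CD8 T cell markers summed to 2108 to 5126 RU, and the list for antibody-secreting cells to 956 to 15199 RU with its highest value on the d12 naïve array.

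**Figure D4:**
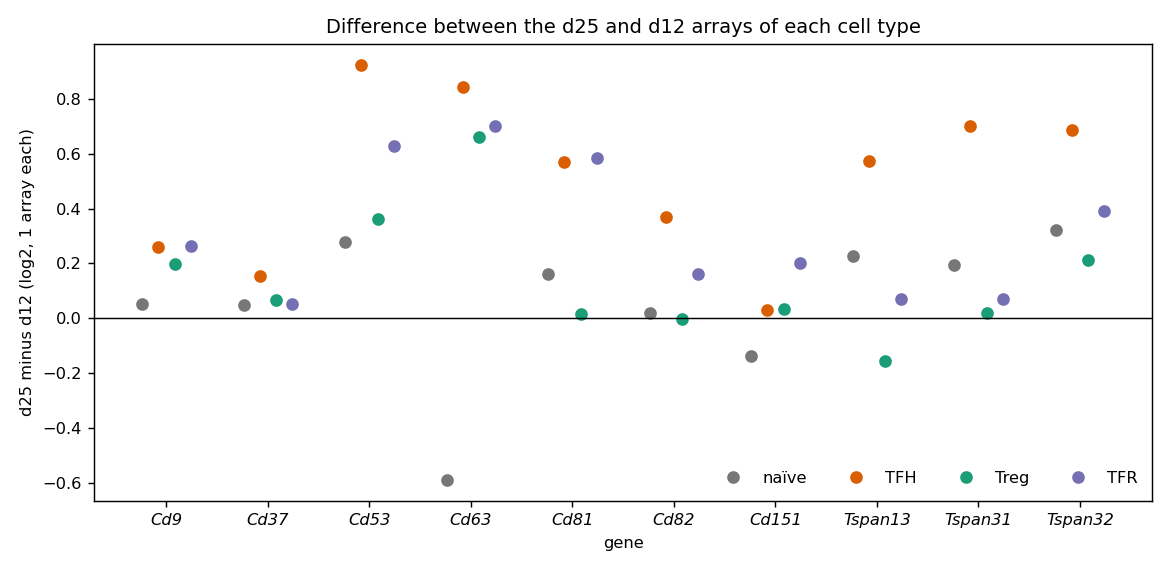
Log2 difference between the d25 and the d12 array of each cell type for the brightest probes of the 10 tetraspanins, with 1 array on each side. All 10 points of TFH cells and all 10 of TFR cells are above 0, and Cd53 in TFH cells is highest with 0.92.

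Further tetraspanins of the mouse were looked up on the array. Of 21 such genes, 12 passed the filter on dim probes and were tested. In TFH compared with naïve cells, 7 of 12 rose and 2 fell, beside 20.9% and 25.6% of all genes. In TFR compared with Treg cells 7 rose and 1 fell, beside 18.7% and 20.9%. These counts include genes that passed the filter only through the cell types in which they were high, such as Tspan2 and Tspan4, so that their direction was fixed by the filter. Of the 7 genes well above background on all 8 arrays, 3 rose and 1 fell in the first comparison and 5 rose and 0 fell in the second. Between TFR and TFH cells 4 were higher (Rom1, Tspan3, Tspan4 and Tspan17) and 3 lower (Tspan5, Tspan14 and Tspan33), beside 11.7% and 10.5%. Of the 7 genes above background on all arrays, 3 were higher and 2 lower. Between Treg and naïve cells, Tspan17 and Upk1a were higher and Tspan4, Tspan9 and Tspan14 lower, beside 5.89% and 3.98%. Tspan4 was not well above background in either of these cell types. Of the same 7 genes, 1 was higher and 1 lower. Rom1, Tspan3 and Tspan14 were chosen for naming after their values were seen, since these counts are small.

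Tspan17 and Tspan4 were called in each of the 4 comparisons, but Tspan4 was not well above background on any naïve or Treg array. Tspan17, one of the TspanC8 tetraspanins that escort the protease ADAM10 to the surface, had 234 and 174 RU in naïve cells, 968 and 729 RU in TFH cells, 454 and 408 RU in Treg cells, and TFR cells had 5006 and 4937 RU. The order is that of Cd81 except that TFH and Treg cells are exchanged. TFR cells exceeded Treg cells by 3.53 ± 0.13 (adjusted p = 0.000448) and TFH cells by 2.57 ± 0.13 (adjusted p = 0.000937) on the log2 scale. Tspan5, another TspanC8 member, had the largest rise from naïve to TFH cells among the 7 genes above background on all arrays, with 2831 and 2804 RU in the former against 18470 and 18044 RU in the latter (2.70 ± 0.09, adjusted p = 0.000159), and 5392 and 5319 RU in TFR cells. For genes not well above background on one side, only a lower bound is given, with the lowest signal well above background on an array in place of a dimmer one. Such genes passed the filter only through cell types in which they were high, so that their direction was fixed by the filter. No p-value is given with a bound. TFR cells exceeded Treg cells at least 6.21-fold for Tspan4 (290 and 371 RU in TFR cells). Between Treg and naïve cells Tspan4 was below background on both sides, so that no fold is given. Tspan9, which is abundant in platelets, fell in 3 comparisons. It had 158 and 255 RU in naïve cells and 83 and 92 RU in Treg cells (-1.20 ± 0.17, adjusted p = 0.0197). It was at least 5.86-fold lower in TFH than in naïve cells and at least 1.89-fold lower in TFR than in Treg cells. Tspan33, a further TspanC8 gene, was at least 1.62-fold lower in TFR than in TFH cells, and Upk1a was at least 2.20-fold higher in Treg than in naïve cells.

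**Figure D5:**
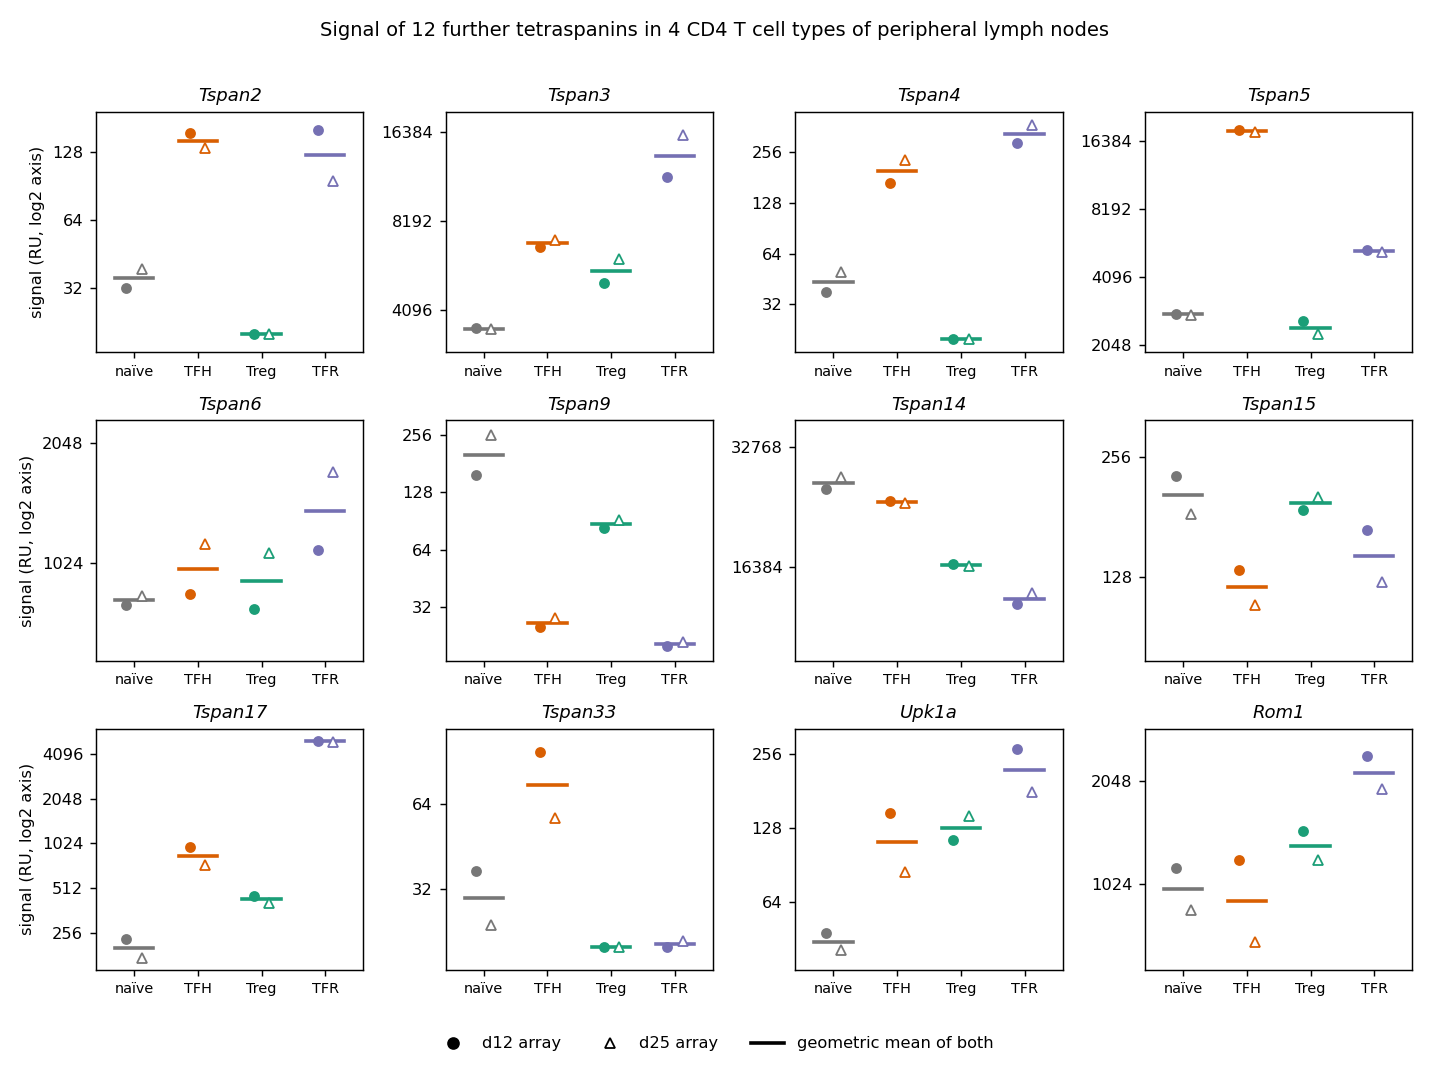
Signal of the 12 further tetraspanins that were tested, in RU on a log2 axis with a floor of 20 RU, by cell type, with the d12 array as a filled circle, the d25 array as an open triangle and their geometric mean as a bar. Tspan17 is highest in TFR, Tspan5 in TFH, and Tspan9 in naïve cells.

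Partners with which tetraspanins assemble were taken as a list of 21 integrins, immunoglobulin family members, proteases and vesicle proteins, of which 20 were tested, 19 of them well above background on all arrays. In TFH compared with naïve cells 11 rose and 3 fell, in TFR compared with Treg cells 7 rose and 4 fell, between TFR and TFH cells 5 were higher and 6 lower, and between Treg and naïve cells 5 were higher and Cd4 was lower (-0.75 ± 0.12, adjusted p = 0.0282). The corresponding shares of all genes, higher and lower, were 20.9% and 25.6%, 18.7% and 20.9%, 11.7% and 10.5%, and 5.89% and 3.98%. The rises in both follicular types include Itga3, which was well above background on 3 arrays. It passed the filter only through TFH cells, so that its direction over naïve cells was fixed by the filter. Of the 19 genes above background on all arrays, 10 rose and 3 fell in TFH cells, and 6 rose and 4 fell in TFR cells. Zdhhc2, a palmitoyltransferase that acts on tetraspanins, had the largest rise in 3 of the comparisons. Its level was 386 and 332 RU in naïve cells, 4882 and 6812 RU in TFH cells, 2034 and 2113 RU in Treg cells, and TFR cells had 8365 and 9646 RU. TFH cells were above naïve cells by 4.01 ± 0.18 (adjusted p = 0.000236), TFR above Treg cells by 2.12 ± 0.18 (adjusted p = 0.00199), and Treg above naïve cells by 2.53 ± 0.18 (adjusted p = 0.00298). Itga6, a laminin receptor subunit that binds CD151, had the largest fall in both follicular types, by -3.07 ± 0.17 in TFH (adjusted p = 0.000378) and -1.82 ± 0.17 in TFR cells (adjusted p = 0.00262). Between TFR and TFH cells, Itga4 was higher (2.22 ± 0.32, adjusted p = 0.0114) and the lysosomal Lamp1 lower (-0.84 ± 0.14, adjusted p = 0.0157). Cd44, Itgal and Itgb1 were called in all 4 comparisons. Itgb1, the chain that CD9, CD81, CD82 and CD151 bind with several α chains, had 1898 and 2190 RU in naïve, 6570 and 6009 RU in TFH, 4392 and 5084 RU in Treg, and 9479 and 11955 RU in TFR cells. Cd44 and Itgal were highest in TFH cells, by 2.56 ± 0.08 (adjusted p = 0.000139) and 1.95 ± 0.08 (adjusted p = 0.000207) over naïve cells.

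Genes with the pattern most like those of Cd81, Cd63 and Cd82, the 3 members with the widest range, were ranked by Pearson r of log2 values over the 8 arrays. For Cd81 these were AW112010 (r = 0.997), Lclat1 (0.994) and Axl (0.993). Axl, a receptor tyrosine kinase, had 224 and 348 RU in naïve cells and 8086 and 13039 RU in TFR cells. For Cd63 they were Ccl12 (0.971), Gm13286 (0.966) and Fxyd2 (0.958) with at most 428 RU on any array. For Cd82 they were 2 transcripts without a gene symbol (0.997 and 0.996) and Tor3a (0.995). These named genes are the top of longer lists, since r was above 0.95 for 83 genes with Cd81, 4 with Cd63 and 499 with Cd82. The 8 arrays share cell type and slide, and the values are descriptions. Among the 10 tetraspanins themselves, Cd63 and Cd151 (0.905) and Cd81 and Tspan31 (0.875) were most alike, and Cd37 and Cd82 (-0.77) most unlike.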

How the data were processed

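RNA of sorted CD4 T cells was hybridized to 1-colour Agilent arrays and read with Feature Extraction 10.7.3.1, as named in the submitters' processing notes. The deposited scanner files hold the intensity of each spot, already background-subtracted by that program. The authors also deposited a table of normalized intensity per probe, which served as an alternative. Following the authors' methods, spots with outlier flags, with a value beyond 1.42 interquartile ranges or with a pixel variation over 0.5 were left out (86.5% to 89.2% retained). A probe on an array where no spot was retained kept all its spots (2 to 20 probes). The geometric mean over the 4 spots of each of 39429 probes was quantile normalized, scaled to a 75th percentile of 1500, set to a floor of 20 and taken to log2. Each gene was represented by the probe with the highest mean. A gene was tested if a cell type had it well above background at d12 and d25 (15764 of 29924 genes), with limma 3.58.1 in R 4.3.3, cell type and day as terms, 3 residual degrees of freedom and Benjamini-Hochberg adjustment. The script was tested on simulated data.

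Groups followed the labels. Labels do not say whether any mice were shared between pools, and the number of arrays limits the precision. Day served as the block, since d25 minus d12 deviations correlated between all cell types (r = 0.284 to 0.511 over genes). The tetraspanins and gene lists were chosen with earlier results of these data known. Named were all 10 tetraspanins, and, in the lists of further tetraspanins and of partners, the called gene with the largest rise and fall in each comparison and every gene called in all 4. Also named were the 3 genes most like each of the 3 members with the widest range. Alternatives concerned normalization, background, spot exclusion, the filter on dim probes, the choice of probe, the authors' table, slide, day, each array left out, and the methods' one-way analysis with Tukey's test. Cells from Peyer's patches are not analysed here.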

Additional observations from a re-analysis of the deposited data

Results flagged for a closer look

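Cd9 is singled out because its follicular change was called different between Foxp3+ and Foxp3- cells, 1 of 10 members beside 8.51% of all genes. The call was lost when any array was left out, with slide as a term, without the day term and without the filter on dim probes. The change from Treg to TFR minus that from naïve CD4 T to TFH cells was -0.71 on the log2 scale (limma, adjusted p = 0.043), and the signs were opposite at d12 (-0.43 and 0.22) and at d25 (-0.36 and 0.42). For Tspan13 the same difference was -1.04 and did not pass the test (adjusted p = 0.0862), with -0.36 and 0.62 at d12 and -0.13 and 0.97 at d25. With 2 arrays per cell type, no array could be tested as standing apart from its group.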

How the results depend on the processing

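Of 16 called differences of the 10 tetraspanins, 4 held under all 18 alternatives: Cd82 in TFH over naïve (1.37 to 1.96) and in TFR over Treg cells (1.10 to 1.34), and Cd81 in TFR over Treg (1.30 to 1.72) and over TFH cells (1.86 to 2.20). No called difference changed its direction. The other 12 lost their call under at least 1 alternative, and unless stated the cause was not tested. Of the 16, 6 kept their call without the filter on dim probes, 8 without the day term and 10 with slide as a term. Tukey's test kept 6 of the 15 that it covers. With 2 arrays per cell type and 3 residual degrees of freedom, small differences are at the limit of what these arrays resolve.

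The replicate block, here the day, was part of the fit, since the pairing of arrays by day held in all pairs of cell types. Without it, 2213 genes were called between TFR and TFH cells (3488 with it), 1004 between Treg and naïve cells (1555) and 816 for the difference of the follicular changes (1341), and the tetraspanins called were 3 between TFH and naïve cells, 3 between TFR and Treg, 1 between TFR and TFH, 1 between Treg and naïve cells and 0 for the difference of the follicular changes. With slide in place of day, these counts of genes were 1363, 525 and 707, and those of tetraspanins 1 between TFR and TFH, 0 between Treg and naïve cells and 0 for the difference.

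Without a filter on dim probes, 3855 genes were called between TFR and Treg cells (6248), 1655 between TFR and TFH, 695 between Treg and naïve cells and 430 for the difference of the follicular changes, and tetraspanins called were 2, 2, 0 and 0 in TFH over naïve, TFR over Treg, Treg over naïve and the difference. With no spot excluded, 1 tetraspanin was called between Treg and naïve cells. Tukey's test, not adjusted over genes, called 2 between TFH and naïve cells, 2 between TFR and Treg and 1 between Treg and naïve cells. Between days, 11 genes were called, but 857 with normexp, 28 with scaling to the 75th percentile, 793 with probes above background on all arrays, 1 with no spot excluded, 0 without the filter and 0 with the mean of all probes.

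With each array left out in turn, genes called were 4311 to 6480 between TFH and naïve (7334 with all arrays), 2500 to 6734 between TFR and Treg, 948 to 2921 between TFR and TFH, 419 to 1864 between Treg and naïve cells, 297 to 1097 for the difference of the follicular changes and 0 to 0 between days. Tetraspanins called were 1 to 5, 2 to 7, 1 to 2, 0 to 2, 0 to 1 and 0 to 0 in this order. Where an array is left out, the lone array of its cell type is assumed to vary like the others.

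A call was gained 17 times, namely for Cd37 in TFR over TFH with normexp, without the filter, with probes above background on all arrays and by Tukey's test, for Cd53 in TFH over naïve with scaling to the 75th percentile, normexp or without the d25 TFH array, for Tspan32 in TFR over Treg with that scaling, the mean of all probes or without either TFH array, for Tspan31 in TFH over naïve with probes above background on all arrays or without the d12 TFH array and in TFR over TFH without the d25 one, and for Cd63 in TFH over naïve, Treg over naïve and the difference of the follicular changes without a naïve array.

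All 24 changes of sign concerned differences that were not called. Scaling to the 75th percentile gave -0.053 for Tspan32 in TFH over naïve, -0.086 for Cd37 and -0.10 for Cd53 in Treg over naïve, and -0.078 for Cd37 and -0.10 for Cd82 between days. The mean of all probes gave -0.053 for Cd151 and -0.013 for Tspan32 in TFH over naïve and 0.063 for Cd151 in TFR over TFH. Slide as a term gave 0.089 for Tspan13 and 0.00431 for Tspan32 in TFR over TFH. With each array left out, values ranged from -0.025 to 0.35 for Tspan32 in TFH over naïve. In TFR over TFH the ranges were -0.16 to 0.062 for Cd151, -0.33 to 0.25 for Cd63, -0.40 to 0.13 for Tspan13 and -0.28 to 0.091 for Tspan32. In Treg over naïve they were -0.20 to 0.031 for Cd151 and -0.17 to 0.19 for Cd53. For the difference of the follicular changes they were -0.081 to 0.15 for Cd151 and -0.12 to 0.49 for Tspan31, and between days -0.024 to 0.089 for Cd151.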
